A study of Mus musculus with 20 samples.

Results

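The naive pluripotency factors are 10 mouse genes: Klf2, Klf4, Klf5, Esrrb, Tfcp2l1, Tbx3, Tcl1, Nr0b1, Zfp42 and Dppa5a. They were chosen by name, with earlier results of these data known, from the 35975 genes to which the transcripts of the deposited tables were assigned. All 10 were found in the files, with 1 to 6 transcripts each, and all 10 had enough counts to be tested. The cells were ES-E14TG2a, a line of mouse embryonic stem cells, labelled WT or TKO. They were taken at D0 as stem cells grown without feeder cells on gelatin, in serum with leukaemia inhibitory factor (LIF). Further cells were taken at D2, D4, D6 and D8 after plating on laminin in N2B27, a serum-free medium to which neither serum nor LIF is listed as added, for differentiation to neural progenitor cells (NPC). The 10 groups of genotype and day held 2 libraries each, 20 in all, of polyadenylated RNA. The labels call these biological replicates without naming separate cultures or clones, and p-values therefore measure only the spread between such samples. The labels do not define TKO and do not say how many clones it represents.

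Naive pluripotency is the state of the epiblast before implantation, and mouse stem cells held in LIF resemble it. It is maintained by a network of transcription factors that bind one another's genes, with LIF acting through Stat3 on Klf4 and Tfcp2l1, and Wnt signalling relieving the repression of Esrrb. When LIF and serum are withdrawn the network is dismantled, while the core factors Pou5f1 and Sox2 persist for longer, and this exit precedes commitment to the neural lineage. Klf2, Klf4 and Klf5 are zinc finger factors with overlapping functions, Esrrb and Nr0b1 are orphan nuclear receptors, and Nr0b1 lacks a classical DNA-binding domain. Tfcp2l1 is a grainyhead-like factor and Tbx3 a T-box factor. Tcl1 is a cofactor of the kinase Akt, Zfp42 (Rex1) is a zinc finger protein widely used as a marker of the naive state, and Dppa5a is an RNA-binding protein with a KH domain.

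Totals ran from 26015282 to 38074768 estimated counts per library. Groups of 2 libraries limit the precision, as does counting error where members fell to few counts. Levels are given as CPM, counts per 1e+06 of a library after scaling by the trimmed mean of M values. As a check of the labels, Dnmt1 and Dnmt3a, which encode DNA methyltransferases, were lower in both TKO libraries than in both WT libraries on all 5 days. Dnmt1 was at 74.8 and 82.5 CPM in TKO D0 against 482 and 401 CPM in WT D0. Dnmt3b was lower in TKO from D0 to D6 but higher at D8, at 94.1 and 82.4 CPM against 55.0 and 38.3 CPM. Dnmt3l went the other way, higher in both TKO libraries than in both WT libraries on all 5 days. It was at 542 and 532 CPM in TKO D0 against 142 and 186 CPM in WT D0. Between the WT D0 libraries the chi-square of the gene counts, divided by its degrees of freedom, was 27.2, and in the remaining groups it was 2.88 to 10.6. Klf5 was at 276 and 432 CPM, Zfp42 at 755 and 1119 CPM and Dppa5a at 943 and 620 CPM in them. Endoderm markers also separated the stem cells, with 12 of 12 listed genes higher in TKO D0, where 19.4% of all genes were higher. Their summed levels were 435 to 482 CPM in TKO D0 against 28.3 to 39.3 CPM in WT D0.

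At D0 the 10 factors were all well expressed in both genotypes. Levels of different genes are compared here as TPM, transcripts per 1e+06 transcripts, which takes transcript length into account. Dppa5a had the highest TPM, at 2765 and 1914 in the WT D0 libraries and 2766 and 2686 in the TKO D0 libraries. Zfp42 came next, at 616 and 964 TPM in WT and 775 and 741 TPM in TKO, followed by Klf2 at 631 and 643 TPM in WT and 438 and 445 TPM in TKO. Zfp42 and Klf2 overlapped in WT but not in TKO. Esrrb lay at 405 and 451 TPM in WT, above Klf4 at 261 and 332 TPM. Nr0b1 (149 and 226 TPM), Tcl1 (162 and 182 TPM) and Klf5 (113 and 188 TPM) overlapped in WT and could not be ordered. Tfcp2l1 was at 70.9 and 72.1 TPM in WT and Tbx3, at 41.8 and 54.6 TPM, was the lowest of the 10, and by mean TPM the order of the 10 genes was the same in TKO.

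Reads of Zfp42 and Dppa5a are less certain than those of the other 8 genes. Of the 31-base words of Dppa5a, 57.2% also occur in transcripts of 11 other genes, and of those of Zfp42, 13.4% occur in Zfp42-ps1. The share was 2% or less for the other members. Of the genes sharing words with Dppa5a, Pigp had the highest level, with means of 33.3 CPM in WT D6, 25.1 CPM in WT D8 and 15.0 CPM in TKO D8, while each of the other 10 stayed at or below 0.241 CPM in every group. Zfp42-ps1 reached 7.63 CPM in TKO D0 and 0.555 CPM in TKO D8. In WT D6 and WT D8 Pigp lay above Dppa5a, whose means there were 3.96 and 4.78 CPM. The part of shared words in the levels of Dppa5a and Zfp42 was not tested.

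The promoters of the members differ in their content of CpG, the dinucleotide at which DNA is methylated in mammals. Windows from 250 bases before to 50 bases after the annotated start were taken from RefSeq (GRCm38.p6) for 7 of the 10 members, 8 windows in all. Of 32851 such windows of the genome the median held 7 CpG. Those shown are the member with the most CpG (Klf4), the start that gives rise to most of the Esrrb transcripts, with the fewest, and 2 genes among those furthest above WT in TKO at D6 and D8, Nr0b1 and Zfp42. Each is written 5′ to 3′ on the strand of its gene, with CpG in capitals.
Klf4, chr4:55532426-55532725, minus strand, 40 CpG: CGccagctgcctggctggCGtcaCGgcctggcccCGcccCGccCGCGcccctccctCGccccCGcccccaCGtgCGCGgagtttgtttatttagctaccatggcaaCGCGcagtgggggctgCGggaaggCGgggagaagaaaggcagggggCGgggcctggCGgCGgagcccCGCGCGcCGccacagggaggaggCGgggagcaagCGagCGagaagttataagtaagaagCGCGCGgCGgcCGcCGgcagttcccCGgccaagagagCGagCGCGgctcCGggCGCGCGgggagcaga
Esrrb, chr12:86421394-86421693, plus strand, 7 CpG: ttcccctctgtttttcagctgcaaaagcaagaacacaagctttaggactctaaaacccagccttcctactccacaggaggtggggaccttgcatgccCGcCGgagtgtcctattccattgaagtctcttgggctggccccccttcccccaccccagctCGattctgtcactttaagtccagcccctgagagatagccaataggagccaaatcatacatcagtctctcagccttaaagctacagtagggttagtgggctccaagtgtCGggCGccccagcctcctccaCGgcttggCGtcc
Nr0b1, chrX:86191525-86191824, plus strand, 14 CpG: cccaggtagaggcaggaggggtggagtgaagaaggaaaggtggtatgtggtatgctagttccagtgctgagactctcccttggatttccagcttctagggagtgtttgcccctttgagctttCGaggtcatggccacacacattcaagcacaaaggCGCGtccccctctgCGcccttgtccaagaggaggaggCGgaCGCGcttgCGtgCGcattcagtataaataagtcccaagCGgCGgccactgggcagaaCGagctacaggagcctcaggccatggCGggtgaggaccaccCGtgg
Zfp42, chr8:43306960-43307259, minus strand, 11 CpG: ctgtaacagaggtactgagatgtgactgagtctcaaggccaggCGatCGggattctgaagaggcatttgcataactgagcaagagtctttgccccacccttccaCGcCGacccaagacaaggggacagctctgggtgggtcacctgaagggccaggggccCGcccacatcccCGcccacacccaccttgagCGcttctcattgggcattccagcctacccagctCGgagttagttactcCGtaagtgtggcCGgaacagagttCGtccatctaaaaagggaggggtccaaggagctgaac
The Klf4 window held more CpG than 96.1% of all windows and that of Klf2, with 32 CpG, more than 90.5%. Tfcp2l1 had 21 CpG and Tcl1 11. The windows of Klf4, Klf2, Tcl1 and Zfp42 contain GGGCGG on either strand, a GC box of the kind bound by Klf and Sp proteins, which occurs in 35.7% of all windows. The octamer ATGCAAAT, the motif of Pou5f1 and its relatives, was searched on both strands and is found in the Zfp42 window alone among those of the members, at position -186 from the start, and in 1.74% of all windows. These matches describe the sequence only, and methylation was not measured here.

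All 10 factors fell between D0 and D2 and fell again between D2 and D4, in WT and in TKO, and all 10 passed in each of these steps. Over all genes tested, 54.7% passed in either direction for WT D2 against D0, 25.8% rising and 28.9% falling, and 53.6% in TKO, 26.9% falling. For D4 against D2, 61.9% passed in each genotype, 30.1% falling in WT and 30.3% in TKO. A gene passed at an adjusted p under 0.05 over all genes tested, and ± gives the standard error (SE) of a log2 fold change. Klf4 had the steepest early loss, from 531 and 653 CPM in WT D0 to 11.3 CPM in both WT D2 libraries, a log2 fold change of -5.71 ± 0.12 (SE, adjusted p = 1.07e-15). Tbx3 was close behind, from 90.0 and 113 CPM to 2.40 and 3.26 CPM (-5.14 ± 0.20, adjusted p = 9.49e-13). Transcripts of both genes were thus largely gone at D2. Dppa5a fell least in this step in WT, from 943 and 620 CPM to 386 and 442 CPM (-0.92 ± 0.20, adjusted p = 0.000664), and its 4 libraries did not overlap.

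The second step was the larger in log2 terms for 7 of the 10 members in WT. Nr0b1, still at 74.6 and 89.0 CPM in WT D2, was at 0.414 and 0.368 CPM in WT D4, a log2 fold change of -7.69 ± 0.25 (adjusted p = 3.22e-14). Tcl1 fell from 13.7 and 19.0 CPM to 0.118 and 0.0306 CPM (-7.70 ± 0.28, adjusted p = 9.69e-14), which is 4 counts and 1 count. Klf2 fell from 223 and 231 CPM to 10.6 and 8.86 CPM in the same step. By D4 the summed level of the 10 genes was 61.4 to 71.2 CPM in WT and 76.2 to 93.0 CPM in TKO, against 5331 to 5798 CPM and 4837 to 4949 CPM at D0. Loss of the naive factors by D4 was seen in both genotypes. In bulk RNA, fewer cells that express a gene and less of its RNA per cell cannot be told apart.

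**Figure D1:**
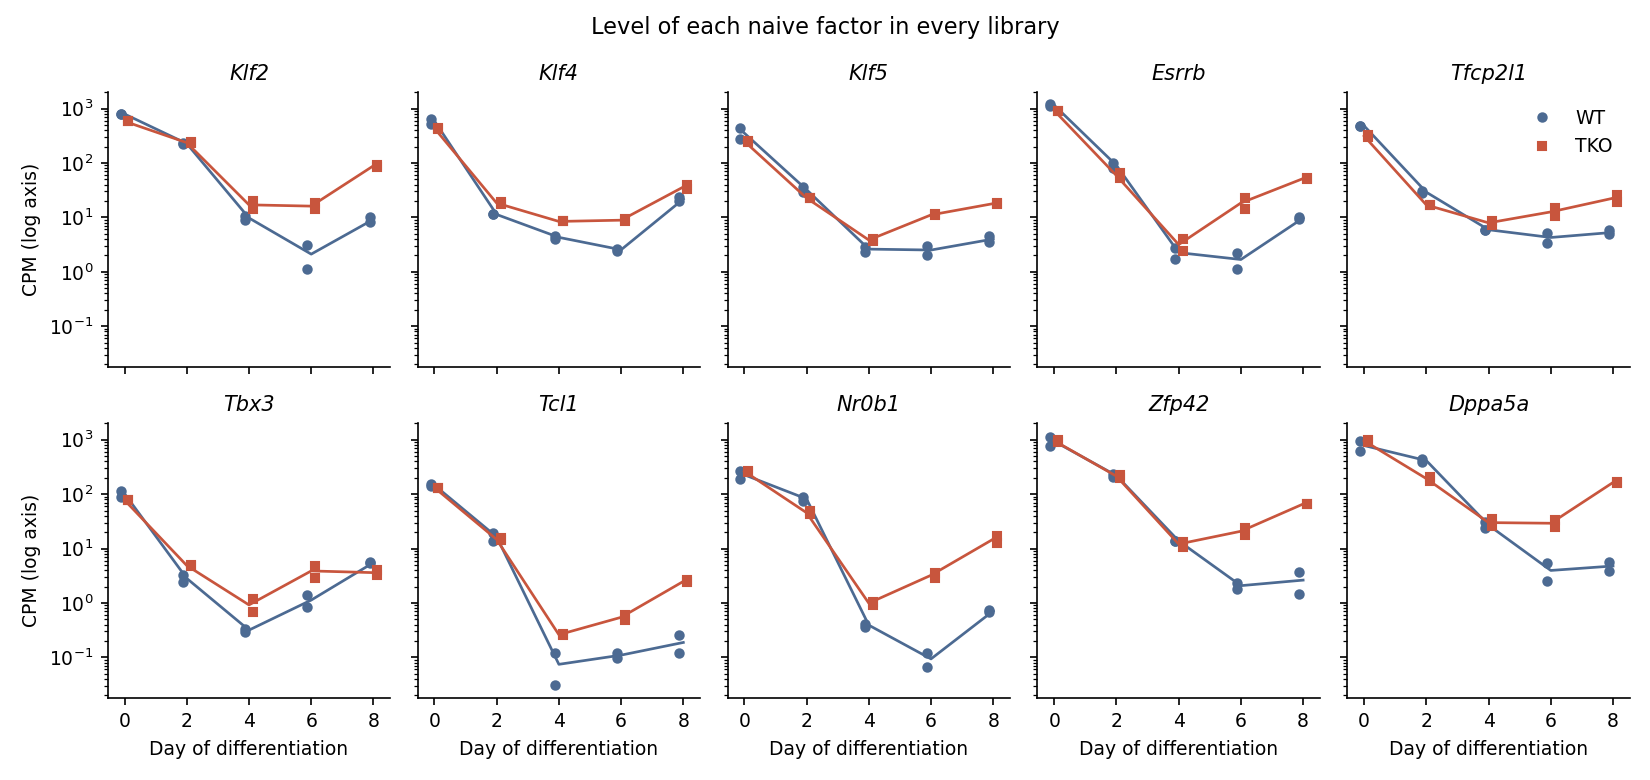
CPM of each of the 10 factors on a log axis against day of differentiation, with a circle for each WT library, a square for each TKO library and a line through the mean of each genotype (n = 2 per day). All curves drop from D0 to D4, and at D6 and D8 the TKO squares lie above the WT circles for every gene except Tbx3 at D8.

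In stem cells the 10 factors differed by less than 2-fold between genotypes. In TKO D0, 5 of the 10 factors were lower than in WT D0 and none was higher, where 39.3% of all genes passed in either direction, 19.4% higher and 19.9% lower. Tfcp2l1 differed most, at 302 and 325 CPM in TKO against 488 and 474 CPM in WT (log2 fold change -0.62 ± 0.12, adjusted p = 0.000516). Klf4 was at 424 and 447 CPM against 531 and 653 CPM (-0.44 ± 0.091, adjusted p = 0.000893). These 2 calls held whichever library was left out, but neither gene differed by 2-fold. The calls of Klf2 (-0.44), Klf5 (-0.50) and Tbx3 (-0.39) depended on single libraries. Without WT D0 replicate 2, Klf5 was at -0.14 (adjusted p = 0.36) and Tbx3 at -0.21 (adjusted p = 0.333). Without TKO D0 replicate 1, Klf2 was at -0.46 (adjusted p = 0.0812) and Tbx3 at -0.40 (0.149). Without TKO D0 replicate 2, Klf2 was at -0.44 (adjusted p = 0.0961), Klf5 at -0.48 (0.0684) and Tbx3 at -0.40 (0.149). With DESeq2 the differences were of like size but missed the threshold, Klf2 at -0.43 (adjusted p = 0.227), Klf5 at -0.49 (0.0617) and Tbx3 at -0.38 (0.0811). The part of the endoderm markers, higher in the same TKO libraries, was not tested.

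At D2 the members went in different directions. In TKO D2, 5 were lower (Dppa5a, Nr0b1, Tfcp2l1, Esrrb and Klf5) and 2 higher (Klf4 and Tbx3), where 35.3% of all genes passed, 18.4% higher and 16.9% lower. Dppa5a was at 208 and 177 CPM in TKO D2 against 386 and 442 CPM in WT D2 (log2 fold change -1.10 ± 0.20, adjusted p = 0.000335). Nr0b1 was at 48.9 and 42.4 CPM against 74.6 and 89.0 CPM (-0.84 ± 0.14, adjusted p = 0.000135). Klf4, which falls fastest, was higher in TKO, at 18.9 and 17.8 CPM against 11.3 CPM in both WT libraries (0.70 ± 0.12, adjusted p = 0.000226). For Nr0b1 and Dppa5a the loss from D0 to D2 was larger in TKO than in WT (interaction -1.05 and -1.40), and for Klf4 and Tbx3 it was smaller (1.15 for each). The interaction is the log2 fold change in TKO minus that in WT, and 18.4% of all genes passed this test, 9.70% higher and 8.74% lower. Some of these D2 calls rested on single libraries. Klf5 passed in none of the fits without WT D2 replicate 2 (adjusted p = 0.25), TKO D2 replicate 1 (0.119) or TKO D2 replicate 2 (0.0795). Esrrb did not pass without WT D2 replicate 2 (0.139) or TKO D2 replicate 2 (0.118). Tbx3 did not pass without WT D2 replicate 1 (0.145), TKO D2 replicate 1 (0.0769) or TKO D2 replicate 2 (0.0676), and its interaction had an adjusted p of 0.05 without WT D2 replicate 1.

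At D4, 3 of the 10 were higher in TKO (Klf2, Klf4 and Tbx3) and none lower, where 28.3% of all genes passed, 15.1% higher and 13.2% lower. The count was 8 higher with no filter on low counts, which adds Klf5, Esrrb, Tfcp2l1, Tcl1 and Nr0b1, and 5 with DESeq2 or with only the groups compared, which add Tfcp2l1 and Nr0b1. Klf4 was at 8.41 and 8.42 CPM against 4.59 and 3.98 CPM (log2 fold change 0.97 ± 0.15, adjusted p = 9.14e-05). Klf2 was at 19.6 and 14.3 CPM against 10.6 and 8.86 CPM (0.80 ± 0.19, adjusted p = 0.00412), and did not pass without WT D4 replicate 2 (0.0523) or TKO D4 replicate 1 (0.0955). Tbx3, under 1.2 CPM in all 4 libraries, did not pass without WT D4 replicate 1 (0.134), WT D4 replicate 2 (0.0938) or TKO D4 replicate 2 (0.225). The fall from D2 to D4 was smaller in TKO for 5 of the 10 (Klf2, Klf5, Nr0b1, Tfcp2l1 and Dppa5a), where 15.8% of all genes passed the interaction test, 7.61% higher. Only Tfcp2l1 (1.19 ± 0.23) kept this call whichever library was left out. Without TKO D4 replicate 1, Nr0b1 was at 2.07 (adjusted p = 0.0509), Dppa5a at 1.03 (0.0558), Klf5 at 1.03 (0.11) and Klf2 at 0.50 (0.26). Klf2 was also lost without either WT D2, WT D4 or TKO D2 library (0.0518 to 0.167), and Klf5 without WT D2 replicate 2, either WT D4 or TKO D2 library or TKO D4 replicate 2 (0.0525 to 0.145). Zfp42 and Dppa5a, among the genes with the largest later differences, did not pass at D4, with log2 fold changes of -0.18 ± 0.23 and 0.16 ± 0.22.

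At D6 all 10 factors were higher in TKO, where 41.3% of all genes passed, 20.9% higher and 20.3% lower. The median log2 fold change of the members was 2.56, against 0.00 over all genes. Among the Klf factors, Klf2 was at 18.1 and 14.1 CPM in TKO against 3.09 and 1.13 CPM in WT (2.91 ± 0.25, adjusted p = 5.2e-08), Klf5 at 11.3 and 10.9 CPM against 3 and 2.02 CPM (2.14 ± 0.24) and Klf4 at 9.30 and 8.46 CPM against 2.67 and 2.42 CPM (1.80 ± 0.16). The nuclear receptors were further apart. Esrrb was at 22.8 and 14.1 CPM against 2.24 and 1.13 CPM (3.44 ± 0.29, adjusted p = 3.85e-08). Nr0b1 was at 3.62 and 2.84 CPM against 0.121 and 0.0662 CPM (5.04 ± 0.53, adjusted p = 7.39e-07), the WT values being 4 and 2 counts, so that its fold rests on few counts. Zfp42 stood at 23.8 and 17.8 CPM against 2.36 and 1.79 CPM (3.32 ± 0.29, adjusted p = 9.44e-08), and Dppa5a at 33.3 and 25 CPM against 5.36 and 2.55 CPM (2.87 ± 0.28). The log2 fold change was 1.57 ± 0.18 for Tfcp2l1, 1.75 ± 0.28 for Tbx3 and 2.24 ± 0.54 for Tcl1, and Tcl1 was below 0.6 CPM in both genotypes. The 10 of 10 count at D6 held whichever library was left out.

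At D8, 9 of the 10 were higher in TKO, where 67.5% of all genes passed, 35.8% higher and 31.8% lower, so that a call by itself says little on this day and the size says more. The median log2 fold change of the members was 2.84, against 0.04 over all genes. Dppa5a reached 166 and 162 CPM in TKO D8 against 5.72 and 3.83 CPM in WT D8 (5.09 ± 0.27, adjusted p = 1.76e-11). Zfp42 reached 67.1 and 64.7 CPM against 3.78 and 1.47 CPM (4.63 ± 0.26, adjusted p = 4.75e-11), and Nr0b1 16.8 and 12.9 CPM against 0.740 and 0.689 CPM (4.37 ± 0.26). These 3 had the largest differences of the members. Klf2 was at 91.4 and 85.9 CPM against 10.2 and 8.15 CPM (3.27 ± 0.18, adjusted p = 3.41e-11), and Esrrb at 50.5 and 53.0 CPM against 10.2 and 9.26 CPM (2.41 ± 0.20). Klf5 was at 18.4 and 17.4 CPM against 4.52 and 3.47 CPM (2.15 ± 0.21), and Tfcp2l1 at 18.9 and 26.0 CPM against 5.75 and 4.85 CPM (2.09 ± 0.17). Tcl1 was at 2.59 and 2.39 CPM against 0.256 and 0.120 CPM (3.68 ± 0.33), low in both genotypes. Klf4, with 23.6 and 19.7 CPM in WT D8, differed by no more than 0.74 ± 0.11, at 33.0 and 39.4 CPM in TKO.

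Tbx3 was the exception at D8. It stood at 3.22 and 4.01 CPM in TKO against 5.46 and 5.57 CPM in WT (-0.60 ± 0.22, adjusted p = 0.0199), and the groups did not overlap. The call was lost without WT D8 replicate 1 (adjusted p = 0.0604), WT D8 replicate 2 (0.072) or TKO D8 replicate 1 (0.153). Tbx3 rose in WT from D6 to D8 by 2.27 ± 0.26 on the log2 scale, while its value in TKO was -0.08 ± 0.23, and this difference between genotypes passed (interaction -2.35 ± 0.36, adjusted p = 2.82e-05).

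**Figure D2:**
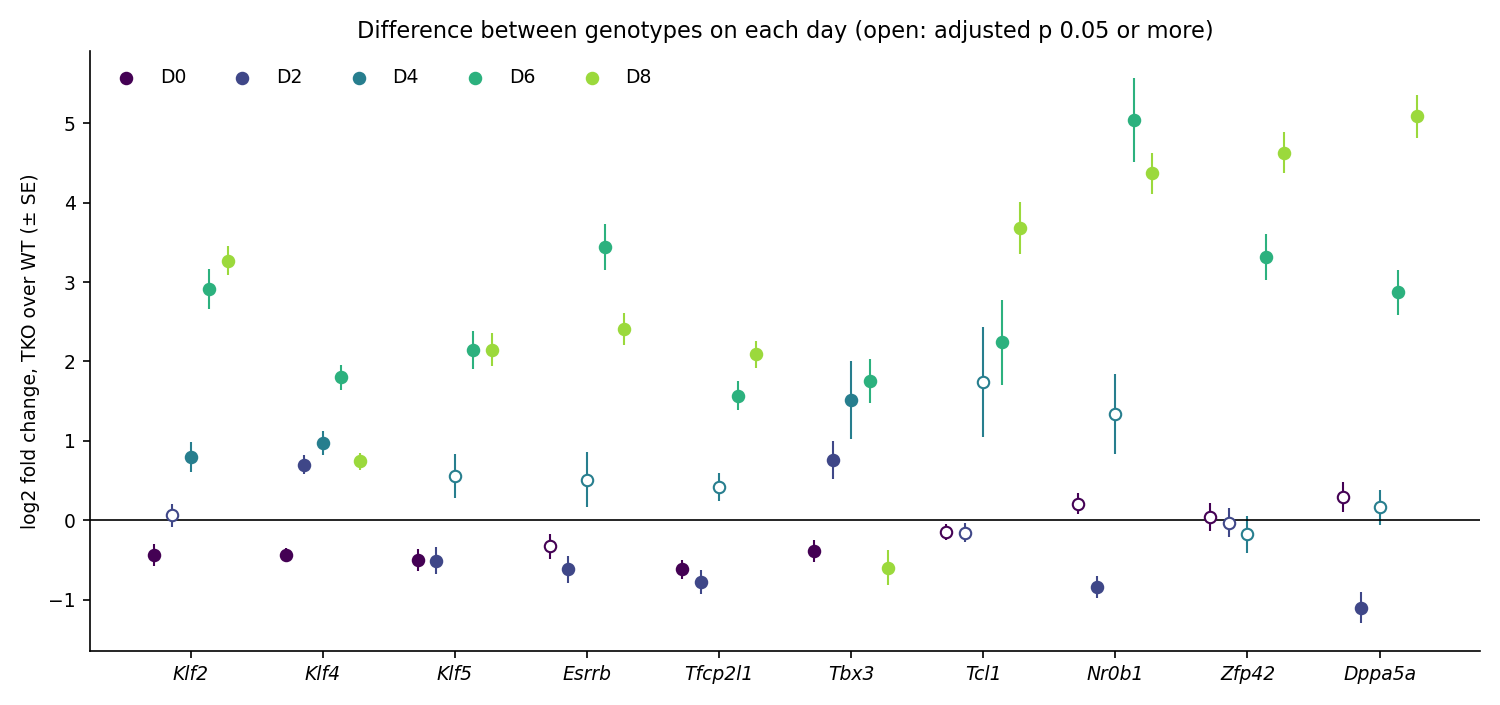
Log2 fold change of TKO over WT on each of the 5 days for the 10 factors, with bars of ± 1 SE from the edgeR fit; filled points passed at an adjusted p under 0.05. The D0 points lie between -0.62 and 0.29, all D6 points lie at 1.57 or above, and at D8 Dppa5a, Zfp42 and Nr0b1 lie above 4 and Tbx3 below 0.

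The members' median log2 fold change of TKO over WT went from 0.68 at D4 to 2.56 at D6. In WT, 4 factors went on falling from D4 to D6 (Klf2, Klf4, Zfp42 and Dppa5a), Tbx3 rose and 5 did not pass, where 53.4% of all genes passed, 27.3% higher and 26.0% lower. In TKO none fell in that step and 6 rose (Klf5, Tbx3, Esrrb, Nr0b1, Tfcp2l1 and Zfp42), where 48.1% of all genes passed, 24.7% higher and 23.4% lower. Esrrb rose from 3.95 and 2.38 CPM to 22.8 and 14.1 CPM in TKO (log2 fold change 2.53 ± 0.25, adjusted p = 3.05e-07), and was -0.40 ± 0.39 in WT. Zfp42 fell from 14 and 13.6 CPM to 2.36 and 1.79 CPM in WT (-2.72 ± 0.31, adjusted p = 8.07e-07) and rose from 13.4 and 10.8 CPM to 23.8 and 17.8 CPM in TKO (0.78 ± 0.22, adjusted p = 0.00795). Dppa5a fell by 2.75 on the log2 scale in WT and was -0.04 ± 0.22 in TKO. The step differed between genotypes for 8 of the 10, all higher in TKO, where 17.1% of all genes passed the interaction test and 8.54% were higher. Tbx3 and Tcl1 did not pass it. The D4 to D6 rise of Zfp42 in TKO was lost without TKO D4 replicate 2 (adjusted p = 0.0784) or TKO D6 replicate 1 (0.12). That of Tfcp2l1 was lost without TKO D6 replicate 1 (0.0824), and the WT rise of Tbx3 without WT D6 replicate 1 (0.071). The interaction was lost for Klf4 without WT D4 replicate 1 (0.0846), WT D6 replicate 2 (0.0737) or TKO D6 replicate 1 (0.0567), for Klf5 without WT D4 replicate 2 (0.0628) and for Nr0b1 without WT D4 replicate 1 (0.0544).

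From D6 to D8, 9 of the 10 rose in TKO, all but Tbx3, where 50.0% of all genes passed, 25.5% rising and 24.5% falling. In WT 5 of the 10 rose in the same step (Klf2, Klf4, Esrrb, Nr0b1 and Tbx3) and none fell, where 57.0% of all genes passed, 26.6% rising and 30.4% falling. A late rise of several members was thus seen in WT as well as TKO. Klf4 rose in WT from 2.67 and 2.42 CPM to 23.6 and 19.7 CPM (log2 fold change 3.09 ± 0.15, adjusted p = 2.57e-11), more than in TKO (2.03 ± 0.12; interaction -1.06 ± 0.20, adjusted p = 0.000224). Esrrb also rose more in WT (interaction -1.03 ± 0.38, adjusted p = 0.0299), although this was lost without WT D6 replicate 2 (0.252), WT D8 replicate 1 (0.0788), TKO D6 replicate 1 (0.156) or TKO D8 replicate 1 (0.0612). Dppa5a and Zfp42 did not pass in WT (0.26 ± 0.35 and 0.34 ± 0.40) and rose in TKO by 2.49 ± 0.22 and 1.66 ± 0.20. Their interactions were 2.23 ± 0.41 (adjusted p = 0.000219) and 1.31 ± 0.45 (adjusted p = 0.0224). That of Zfp42 was lost without WT D6 replicate 1 (0.158), WT D8 replicate 2 (0.106) or TKO D6 replicate 2 (0.0537). For this test 49.9% of all genes passed, 25.5% higher and 24.4% lower. Endoderm and trophoblast markers rose with the WT members in this step, 9 of 12 and 10 of 11 tested. Their summed levels were 44.3 to 57.6 CPM and 31.5 to 33.4 CPM in WT D6, and 88.3 to 144 CPM and 46.5 to 47.7 CPM in WT D8. Neuron markers were higher too, summed at 713 to 790 CPM in WT D6 and 3452 to 3489 CPM in WT D8. Epithelial markers were at 144 to 152 CPM and 257 to 259 CPM. The summed level of mesenchyme markers was lower in WT D8, at 93.1 to 95.6 CPM against 158 to 175 CPM. Most of that sum was Acta2, with means of 132 CPM in WT D6 and 50.3 CPM in WT D8. Single mesenchyme genes went both ways. Acta2, Col1a2 and Pdgfrb passed as lower, and Col3a1, Dcn, Prrx1 and Twist1 as higher. Of the core factors, Pou5f1, Utf1, Tdgf1 and L1td1 were higher in both WT D8 libraries than in both WT D6 libraries. Sox2, Sall4, Lin28a, Trim28 and Rif1 were lower. The part of these genes and lists in the WT rise was not tested.

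**Figure D3:**
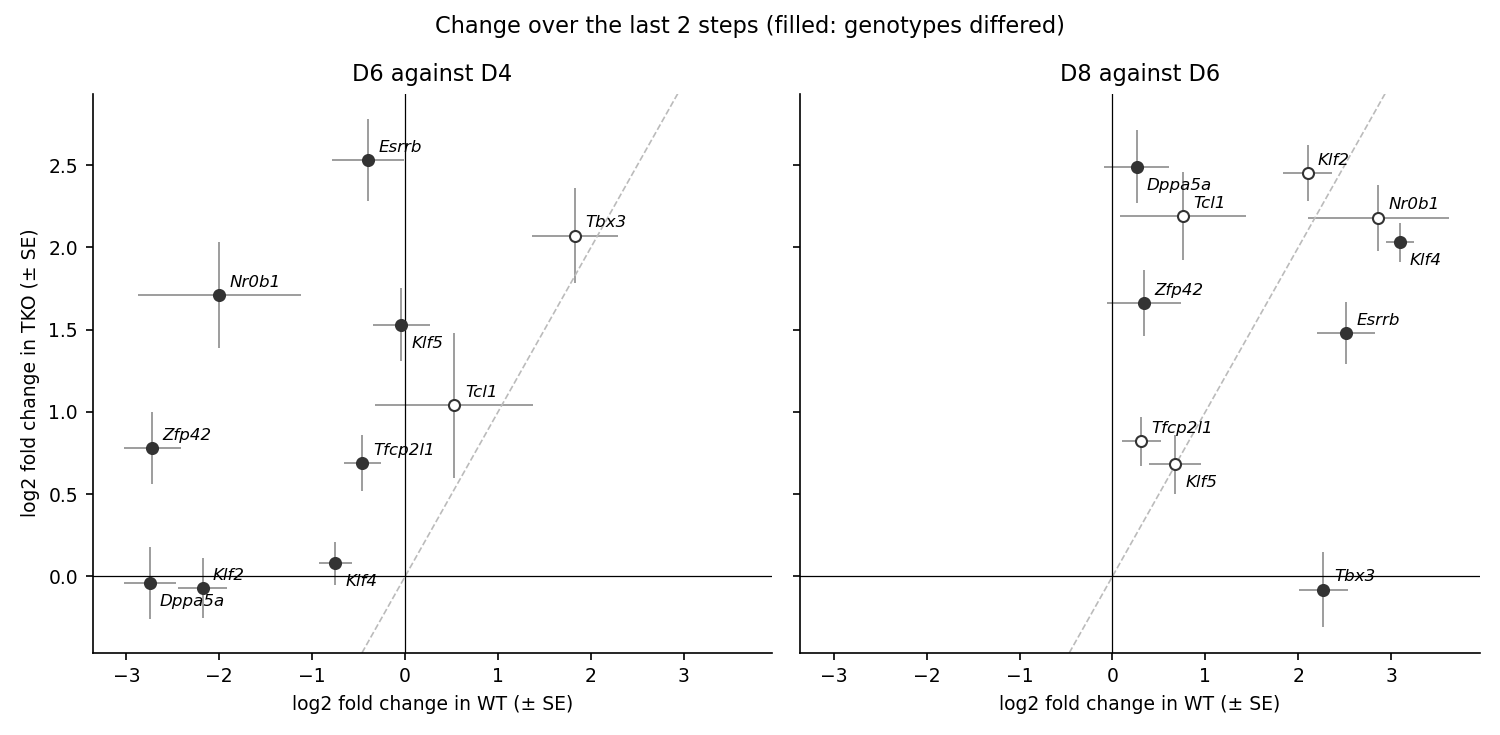
Log2 fold change of each factor in WT (x axis) and TKO (y axis) from D4 to D6 on the left and from D6 to D8 on the right, with bars of ± 1 SE; filled points have an interaction with an adjusted p under 0.05 and the dashed line marks equal change. On the left 8 filled points lie above the line, and on the right Dppa5a and Zfp42 lie above it and Klf4, Esrrb and Tbx3 below.

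No factor returned to its D0 level by D8. In WT D8 the members stood at 0.129% (Tcl1) to 5.42% (Tbx3) of their own D0 mean, with Klf4 at 3.66%, Klf2 at 1.16% and Zfp42 at 0.28%. From TPM in place of CPM these WT D8 levels were higher, with Klf4 at 6.29%, Tbx3 at 6.93% and Tcl1 at 0.212% of D0. In TKO D8 they stood at 1.89% (Tcl1) to 17.1% (Dppa5a) by CPM, with Klf2 at 15.2%, Klf4 at 8.31%, Zfp42 at 6.86% and Esrrb at 5.63%. From TPM the TKO D8 levels were higher too, with Dppa5a at 21.2%, Klf2 at 18.8% and Klf4 at 11.1% of D0. All 10 remained below D0 in both genotypes, where 76.8% of all genes passed for WT D8 against D0, 37.8% higher and 39.0% lower, and 65.1% for TKO, 34.2% higher and 30.8% lower. The loss was smaller in TKO for 9 of the 10, all but Tbx3 (interaction -0.22 ± 0.26), where 52.3% of all genes passed the test and 29.3% were higher. The mean level was lowest at D6 for 8 of the 10 members in WT, the others being Tbx3 and Tcl1 at D4. In TKO it was lowest at D4 for 8 of the 10, the others being Klf2 and Dppa5a at D6. In the joint test of the 4 later days the time course differed between genotypes for all 10, as it did for 68.9% of all genes.

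**Figure D4:**
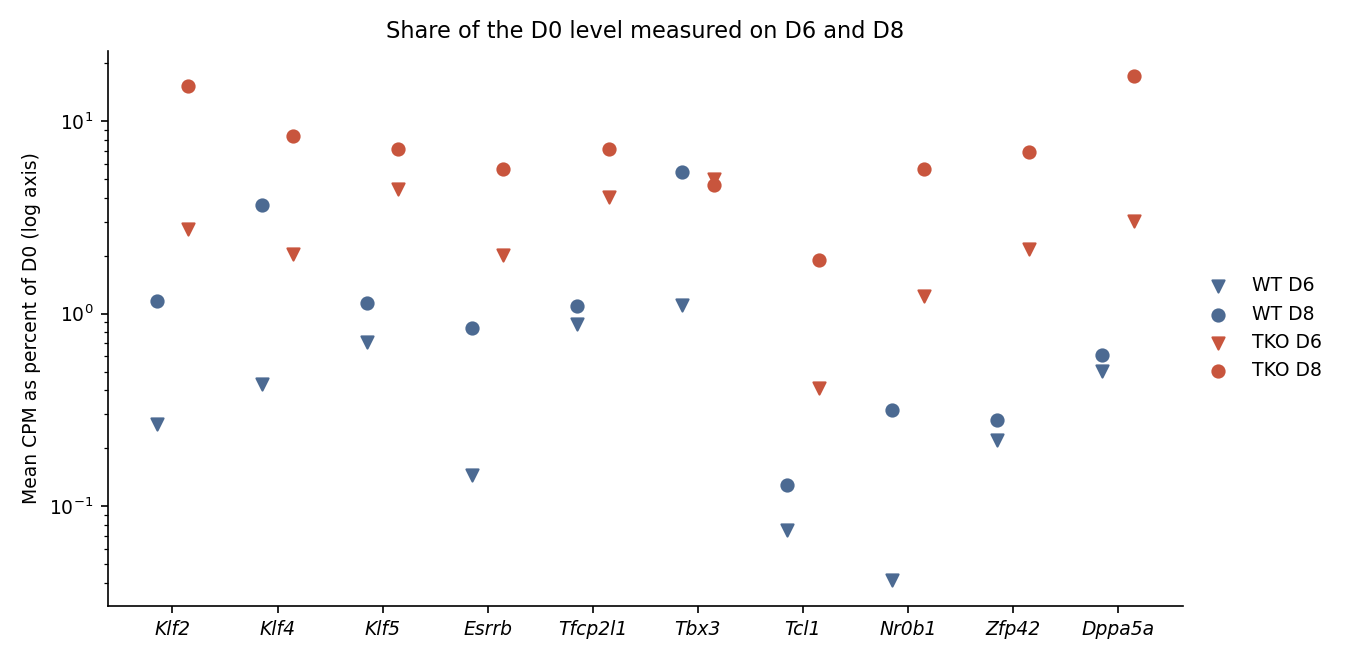
Mean CPM of each factor at D6 (triangles) and D8 (circles) as a percentage of the D0 mean of the same genotype, on a log axis, for WT and TKO (n = 2 libraries per mean). TKO D8 reaches 17.1% for Dppa5a and 15.2% for Klf2, whereas the WT D8 circles stay at or below 5.42%.

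Estimates for single transcripts were compared where the gene had enough counts. Transcript Esrrb-203, from the Esrrb start whose promoter is shown above, made up 83.0% and 84.9% of the gene's TPM in WT D0 and 82.0% and 78.6% in TKO D0. When Esrrb was higher again in TKO D8, Esrrb-203 was at 86.4% and 81.4%. Esrrb-204, from a start further upstream, was at 1.56% and 1.61% in WT D0 and at 0% in both TKO D8 libraries. In WT D8 the Esrrb-204 estimates were 33.0% and 9.13%, which differ widely between the 2 libraries. Zfp42-201 held 85.4% and 90.0% of Zfp42 in TKO D8, against 92.5% and 92.2% in TKO D0. The Tbx3 estimates scattered between libraries at low levels, with Tbx3-203 at 31.3% and 84.7% in the TKO D2 libraries, and no isoform is compared for this gene.

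Other genes of the naive network, written as a list of 16, went with the members. In TKO D6, 12 of the 16 were higher and 1 lower, and in TKO D8 14 were higher and 1, Jam2, lower, with a median log2 fold change of 3.83. Over all genes 20.9% were higher and 20.3% lower at D6, and 35.8% and 31.8% at D8, which is the background for all counts of listed genes on these days. At D8 the largest were Trh, a hormone precursor (632 against 6.80 CPM), Fgf4, a growth factor that promotes exit (48.9 against 0.595 CPM), Tdh, a threonine dehydrogenase (124 against 2.77 CPM), and Dppa2, a chromatin factor (29.1 against 0.795 CPM). Core factors were divided at D6, with 4 of 9 higher and 2 lower. Pou5f1 (49.8 against 4.4 CPM), Tdgf1 (11.1 against 0.467 CPM), Utf1 (14.9 against 1.21 CPM) and L1td1 (29.3 against 1.54 CPM) were higher. Their log2 fold changes of 3.49 to 4.54 lay above the members' median of 2.56. Sox2 was among those lower (147 against 240 CPM). At D8, 8 of 9 were higher, Pou5f1 reaching 526 CPM against 12.5 CPM, and Sox2 was again lower. Genes of the formative and primed states, which follow the naive state, were also higher in TKO D8, 12 of 14, with Fgf5 at 31.3 against 1.65 CPM and Etv5 at 298 against 18.5 CPM. Of 14 LIF and Bmp signalling genes, 5 were higher and 6 lower at D8, near the shares over all genes, with a median of -0.11.

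Markers of several other cell types also differed between genotypes at D8, some lists lower in TKO and others higher. Neural progenitor markers were lower in TKO D8, 12 of 12, with a summed level of 1412 to 1422.5 CPM against 3419 to 3503 CPM, and neuron markers were lower, 10 of 10, at 912 to 918 CPM against 3452 to 3489 CPM. Epithelial markers were higher, 10 of 11, at 1112 to 1159 CPM against 257 to 259 CPM, and Epcam and Cdh1, which stem cells also express, were among them. At D6, where all 10 members were already higher in TKO, neuron markers were higher too, 8 of 10, and neural progenitor markers were lower for 7 of 12. Trophoblast markers were summed at 84.8 to 86.1 CPM in TKO D8 against 46.5 to 47.7 CPM in WT D8, with 8 of 11 tested higher. Of 9 mesenchyme markers tested, 4 were lower (Col1a1, Col3a1, Pdgfrb and Acta2) and 1, Twist1, higher, with summed levels of 62.3 to 63.3 CPM against 93.1 to 95.6 CPM. Not all of the 9 markers of 2-cell-like cells had enough counts to be tested, and none of those tested passed. Their levels were low, summed over the 9 at 0.734 to 1.32 CPM in TKO D8 with 5 of 9 at 0. In WT D8 the sum was 1.34 to 1.44 CPM, with 6 of 9 at 0. The part of these other cell types in the levels of the members was not tested.

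The genes closest in pattern to each member were taken by Pearson correlation of log2(CPM + 1) over the 20 libraries among 12437 genes. These values are a description, since libraries of a group share their day and genotype. Nr5a2, an orphan nuclear receptor, was closest to Nr0b1 (r = 0.995), and Prdm14, a regulator with a PR domain that supports the naive state, to Tfcp2l1 (r = 0.993). Gcnt2, a glycosyltransferase, was closest to both Klf2 and Zfp42 (r = 0.992 for each), Dgka, a diacylglycerol kinase, to Klf5 (r = 0.992), and Mymx to Tcl1 (r = 0.993). Pdk1, a kinase of pyruvate dehydrogenase, was closest to Dppa5a (r = 0.990) and Cldn4 to Esrrb (r = 0.989). Klf4 was closest to Reps2 (r = 0.969) and then to Tbx3 (r = 0.965), and Tbx3 to Inhbb (r = 0.973). Within the members, Klf5 and Esrrb were nearest each other (r = 0.985), as were Zfp42 and Dppa5a (r = 0.983), and Tbx3 and Dppa5a were the least alike pair (r = 0.682).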

How the data were processed

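Stranded libraries of polyadenylated RNA from 20 samples were analysed. The submitters' processing notes name Trim Galore 0.6.2, kallisto (version not given in the sources used here) and GRCm38. Per the file headers, the deposited tables give estimated counts and TPM for each of 119414 transcripts. Transcripts were assigned to genes of GENCODE M21 (116728 matched; the others, 0.943% to 1.099% of counts, were left out). For each gene the estimated counts of its transcripts were added up, then rounded. All libraries were fitted together in edgeR 4.0.16 (R 4.3.3): filterByExpr on the 10 groups, TMM scaling, quasi-likelihood F test, with 18555 genes tested and Benjamini-Hochberg adjustment over them; genes passed at an adjusted p under 0.05. SE is the log2 fold change divided by the square root of F. Comparisons were TKO against WT on each day, each day against the one before and D8 against D0 within a genotype, and the interactions.

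Totals were 26015282 to 38074768 per library. The alternatives are given in the closing section, DESeq2 1.42.0 among them, and a group left with 1 library is assumed to vary like the others. The fit was also run on simulated counts, with the same replicate spread for every gene and changes in TKO D8 only. Such counts cannot show how the fit does for members that fell to few counts. Nor can they show how it does at the spread of the WT D0 libraries. Named genes were the members, up to 4 per other list of the largest absolute log2 fold change among genes past the threshold, the 3 genes closest in pattern to each member (group mean of at least 5 CPM, no predicted names), and the Dnmt genes. Not all of these are printed, and Sox2, Jam2, Epcam, Cdh1, Pigp, Zfp42-ps1, Esrrg and Col1a2 were added after their values were seen. The members and lists were chosen with earlier results of these data known.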

Additional observations from a re-analysis of the deposited data

Results flagged for a closer look

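The change of a member between days differed between TKO and WT in 31 tests of the interaction, each given as the log2 fold change in TKO minus that in WT (edgeR, adjusted p under 0.05). Values above 0 mean a smaller fall or a larger rise in TKO. From D0 to D2 these were Klf4 1.15, Tbx3 1.15, Nr0b1 -1.05 and Dppa5a -1.40. From D2 to D4 they were Klf5 1.07, Nr0b1 2.18, Tfcp2l1 1.19, Klf2 0.75 and Dppa5a 1.26. From D4 to D6 they were Klf4 0.83, Klf5 1.58, Esrrb 2.94, Nr0b1 3.71, Tfcp2l1 1.15, Zfp42 3.50, Klf2 2.11 and Dppa5a 2.71. From D6 to D8 they were Klf4 -1.06, Tbx3 -2.35, Esrrb -1.03, Zfp42 1.31 and Dppa5a 2.23. Over the whole course from D0 to D8 they were Klf4 1.18, Klf5 2.65, Esrrb 2.73, Nr0b1 4.15, Tfcp2l1 2.70, Tcl1 3.83, Zfp42 4.60, Klf2 3.71 and Dppa5a 4.80. The sign changed with the step for Klf4, Tbx3, Esrrb, Nr0b1 and Dppa5a. All 10 members were tested in each comparison. Over all genes, 18.4% passed from D0 to D2, 15.8% from D2 to D4 and 17.1% from D4 to D6. From D6 to D8 49.9% of all genes passed, and 52.3% from D0 to D8. The number of members called from D6 to D8 was thus near the share over all genes. Groups of 2 libraries are too small for a test of single outlying libraries.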

How the results depend on the processing

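Of 2597 values of members under the alternatives, 2444 stayed on the same side of the threshold, 106 lost a call, 47 gained one and none reversed with a call; 118 of 151 calls passed under every alternative run. Counts of members that moved were as follows, and the cause was not tested. At D0, higher in TKO went from 0 to 2 with no low-count filter, and lower from 5 to 2 at an adjusted p under 0.01, 0 at 2-fold or more and 2 with DESeq2. At D2, higher went from 2 to 1 with length-scaled TPM counts, 1 at 0.01 and 0 at 2-fold, and lower from 5 to 1 at 2-fold and 3 with DESeq2. At D4, higher went from 3 to 8 with no filter, 1 at 2-fold, 5 with DESeq2 and 5 with only the groups compared. At D8, lower (Tbx3) went from 1 to 0 with length-scaled TPM counts, at 0.01 and at 2-fold. The interactions higher in TKO went from 2 to 1 (D0 to D2, length-scaled TPM counts), 5 to 3 (D2 to D4, 0.01) and 2 to 1 (D6 to D8, 0.01). Leaving out 1 library gave 0 to 1 higher and 2 to 5 lower at D0, 1 to 2 higher and 3 to 6 lower at D2, 1 to 2 higher at D4 and 0 to 1 lower at D8. It gave 0 to 1 higher for WT D6 against D4, and for the interactions higher in TKO 1 to 2 (D0 to D2), 1 to 6 (D2 to D4) and 1 to 4 (D6 to D8). The share of all genes passing moved by over 1.5 times at 2-fold (5.62% to 46.5%). At 0.01 it was 17.4% at D4 and 9.16%, 8.41% and 9.53% for the first 3 interactions. Without TKO D4 replicate 2 it was 17.5% at D4, and for the D0 to D2 interaction it was 11.1% without WT D2 replicate 2, 11.5% without TKO D0 replicate 1 and 11.7% without TKO D2 replicate 2.

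Same-numbered replicates were not treated as paired: over 45 pairs of groups their deviations correlated at -0.11 to 0.13, with 2 over 0.1. A replicate block ended no member's call and gained 1, Klf5 for WT D8 against D6 (0.66, adjusted p = 0.0492). With deposited TPM in place of CPM, 60 levels relative to D0 were 0.682 to 1.83 times the CPM values. Of the 60, 17 moved by less than 1 standard deviation of the CPM libraries, and the others moved further. Low counts limit Tcl1 at D4 and D6 in both genotypes and at D8 in WT, Nr0b1 in WT from D4 on and Tbx3 in WT D4, among others.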

Other observations

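Relatives of the members by sequence family were listed as 34 genes, of which 28 could be tested. In TKO D8, 14 were higher and 8 lower than in WT D8, with a median log2 fold change of 0.60. Over all genes 35.8% were higher and 31.8% lower at D8, so that these counts are close to the background. Those with the largest changes were Klf1, Ooep, Khdc3 and Grhl2. Grhl2, a grainyhead-like factor of epithelia and a relative of Tfcp2l1, was at 48.1 and 44.9 CPM against 2.73 and 3.03 CPM. Ooep, an oocyte protein with a KH domain, was at 8.42 and 7.38 CPM against 0.540 and 0.359 CPM, and Khdc3 at 1.33 and 1.75 CPM against 0.0853 and 0.0899 CPM. Klf1 was at 0.245 and 0.919 CPM in TKO D8 and had no count in either WT D8 library. Esrrg, an orphan receptor related to Esrrb, was lower in TKO D8 (mean 4.82 against 31 CPM) and was picked after its values were seen. Germ cell markers were higher in TKO D6 for all 10 genes and in TKO D8 for 8 of 10. Over all genes, 20.9% were higher at D6 and 35.8% at D8. The summed levels at D6 were 335 to 404 CPM in TKO against 27.0 to 27.5 CPM in WT. Most of the TKO sum was Dazl, at 232 and 292 CPM. Dazl was already higher in TKO D0 (mean 54.2 against 4.98 CPM).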
